A study of Drosophila melanogaster with 6 samples.

Results

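The cytochrome P450 genes of clan 4 were described in Drosophila larvae with and without induced DHR96, a nuclear receptor encoded by Hr96. The group was chosen by gene name alone, as every probe set annotated to a gene of the families Cyp4, Cyp311, Cyp312, Cyp313, Cyp316 or Cyp318. It holds 32 genes with 1 probe set each, of 11982 genes that had a probe set of their own on the array. Of these 32 genes, 15 were bright enough to be tested and 17 were not.

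On 6 oligonucleotide arrays, total RNA was measured from whole, yeast-fed larvae that had just entered the third instar. The 3 gain samples came from a P-element line that carries a full-length DHR96 cDNA driven by a heat-shock promoter in the w1118 background. The 3 control samples came from w1118, the host strain, with no transgene. At 3 h past the moult, larvae of both groups were heated at 37.5 °C for 1 h, and their RNA was extracted 4 h later still. Heat is therefore shared by both groups, and induced DHR96 and the presence of the transgene in a line of its own enter each difference together. Nothing in the labels says whether the samples within a group are separate cultures, so p-values measure the spread between these samples, which may be technical.

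P450 enzymes are haem proteins that insert an oxygen atom into small lipophilic molecules, with electrons passed on by NADPH-cytochrome P450 reductase and, for some, cytochrome b5. Clan 4 is named after the CYP4 family, best known in vertebrates for hydroxylating the terminal carbon of fatty acids. In insects its best understood member is Cyp4g1, the oenocyte enzyme that releases the hydrocarbons of the cuticle from long-chain aldehydes. DHR96 is known in flies for its part in xenobiotic responses and in the control of triacylglycerol and cholesterol levels, and the comparison asks which transcripts differ when the receptor is present in excess.

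Values are log2 of the deposited intensity, and differences are gain minus control. Hr96 had log2 values of 14.73, 14.71 and 14.64 in gain and 9.47, 9.82 and 9.50 in control, a difference of 5.10 (adjusted p = 1.86e-05), higher in every gain array. Across 7974 genes and unnamed probe sets tested, the median difference was -0.15. Differences below are not adjusted for this median unless another scaling is named. With no filter the median was 0.031, so the shift is not common to all probe sets. The array of gain 2 had a median log2 value of 8.61 over the tests, against 8.95 to 8.99 in the other gain arrays and 9.09 to 9.10 in the controls. Control 3 stood apart from the other controls, with an SD of the log2 difference of 0.43 and 0.48 to them, against 0.20 between controls 1 and 2. Between gain arrays this SD was 0.31 to 0.37, so controls 1 and 2 were also more alike than any gain pair. Whether control 3 is the unusual array was not tested. Calls of clan 4 genes are therefore also given without control 3 or gain 2, and calls in the other lists where leaving out either array changes them.

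In larvae with induced DHR96 1 clan 4 gene fell and none rose. The gene that fell was Cyp4c3, to a level 2.15-fold lower than in control larvae. The other 14 tested genes did not pass, and their differences lay between -0.47 and 0.29 on the log2 scale. Over all tests 3.47% were called lower and 0.451% higher, so 1 call among 15 genes is near the background and is not a result about the group. At an unadjusted p under 0.05, limma gave 5 lower and none higher, where 18.5% of all tests were lower and 2.62% higher. The median difference of the 15 genes was -0.27, beside -0.15 for all tests.

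**Figure D1:**
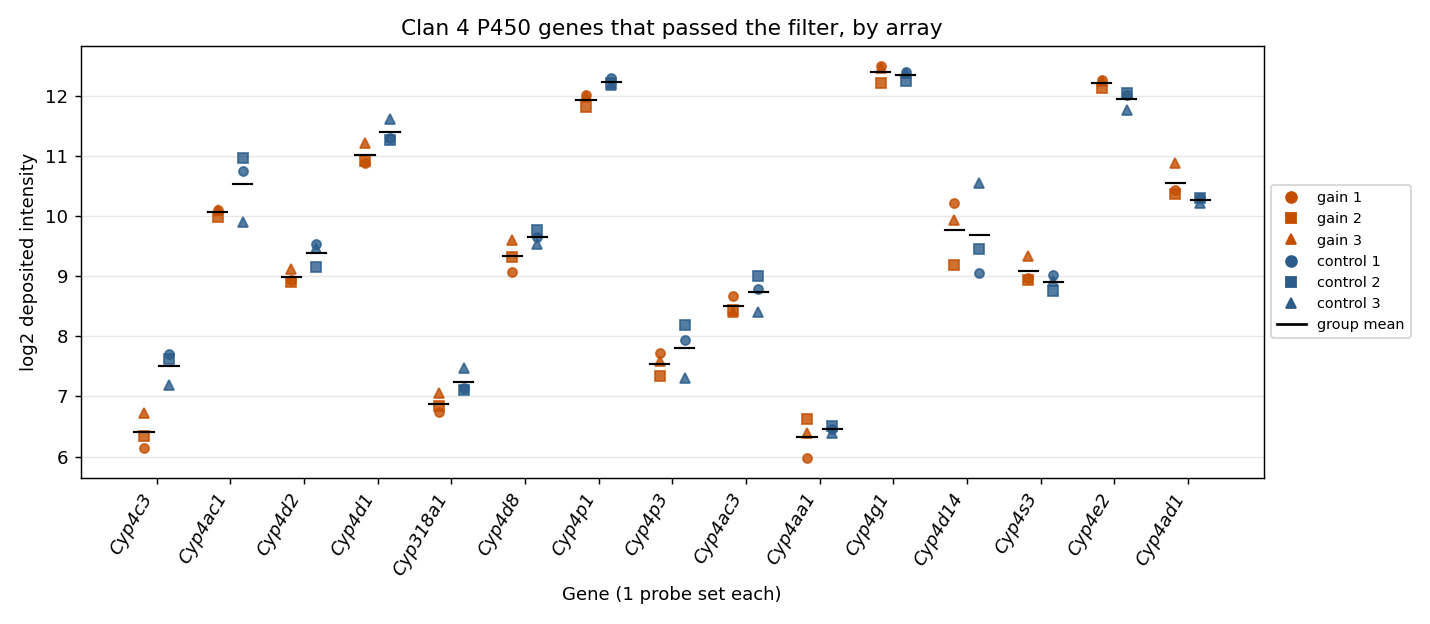
Log2 deposited intensity (y axis) of the 15 clan 4 genes that passed the filter (x axis), ordered by difference, with gain arrays left of control arrays, a symbol for each array and a black line for the group mean. Cyp4c3, at the far left, has gain arrays at 6.15 to 6.73 and control arrays at 7.18 to 7.71; heights of different probe sets are not comparable with each other.

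Cyp4c3 had log2 values of 6.15, 6.34 and 6.73 in gain larvae, against 7.71, 7.62 and 7.18 in control larvae. The groups did not overlap, and gain 3 and control 3 were the arrays nearest to each other. The means were 6.40 ± 0.29 in gain and 7.50 ± 0.28 in control (SD, n = 3 each), a difference of -1.10 ± 0.20 (SE, adjusted p = 0.041). The 95% interval of the difference ran from -1.59 to -0.61. The call is close to its threshold: over 19 alternatives the difference lay between -1.26 and -0.83 and the adjusted p between 0.0254 and 0.175. It passed in 10 of the 19 alternatives and did not in 9. It ended without control 1 (adjusted p = 0.175), control 2 (0.152), gain 1 (0.114) or gain 2 (0.107), and it held without control 3 (0.0261) or gain 3 (0.0421). It also ended with no filter (0.128), quantile normalization (0.0779), median centring over the tests (0.0599), the replicate number as a block (0.0891) or controls 1 and 2 averaged (0.159).

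In whole larvae, fewer cells of a type and less RNA per cell cannot be told apart, so marker lists of 4 tissues were read on the same arrays. Of 10 Malpighian tubule markers tested 8 had a negative difference and none passed (6 lower and none higher at an unadjusted p under 0.05). Over all tests 75.0% had a negative difference, and 18.5% were lower and 2.62% higher at that unadjusted threshold. The summed intensity of the tubule markers was 6033 to 8170 in gain, against 9957 to 10632 in control. Their median difference was -0.50, with Drip, an aquaporin gene, at -0.72. Without control 3 the potassium channel gene Irk1 was lower, at -0.77 (adjusted p = 0.0337), and the alkaline phosphatase gene Alp4 higher, at 1.08 (adjusted p = 0.0332), and Irk2 was lower under quantile normalization. Of 12 midgut markers listed 6 were tested, since no probe set carries the names of the others alone. Of these 6 markers 2 fell in limma, where 3.47% of all tests were lower. These were the transcription factor genes GATAe at -1.29 (adjusted p = 0.0063) and cad at -1.02 (adjusted p = 0.00965). The summed intensity of the midgut list overlapped, at 76973 to 87583 in gain and 86279 to 94113 in control. Of 9 fat body markers listed 5 were tested. NLaz was under the floor, and no probe set carries the names of the Lsp1 genes alone. The 5 fat body markers had a median difference of -0.08, with summed intensities of 45060 to 48461 in gain and 49475 to 64599 in control. Most of each sum came from apolpp, whose difference was -0.08. The highest control sum was that of control 3, where Lsp2 was at 14.45, against 13.16 and 11.64 in controls 1 and 2. The 5 oenocyte markers had a median of -0.14, and their summed intensity overlapped, at 2831 to 3469 in gain and 3054 to 3247 in control. That sum came mostly from spidey and Hnf4, with FarO and FASN3 under the floor, so it rests on few of the listed genes. None of the fat body or oenocyte markers passed in limma. At an unadjusted p under 0.05 no fat body marker was past the threshold, and of the oenocyte markers the nuclear receptor genes svp, at -0.81, and Hnf4, at 0.30, were. Without control 3 svp passed, at -1.04 (adjusted p = 0.0174), and Hnf4 passed as higher under quantile normalization, median difference centring and median centring over the tests. The part of these tissues in the difference of Cyp4c3 was not tested.

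Cyp4g1, the cuticular hydrocarbon enzyme, had nearly equal values in both groups. Its log2 values were 12.50, 12.22 and 12.46 in gain larvae, against 12.40, 12.25 and 12.38 in control larvae. The groups overlapped, with gain 2 the lowest of the 6 arrays. The difference was 0.05 ± 0.12 (SE, adjusted p = 0.842), and its 95% interval ran from 0.85-fold to 1.26-fold of the control level. Under quantile normalization, median difference centring and median centring over the tests the gain arrays of Cyp4g1 all lay above the controls, and under median centring over all probe sets its difference was -0.04. Cyp4g15, a close relative of Cyp4g1 known from the nervous system, was not tested: its log2 values were 3.65, 3.05 and 3.84 in gain and 3.87, 3.86 and 4.06 in control.

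The Cyp4d subfamily had 6 members, of which 4 were tested and none passed (2 lower and none higher at an unadjusted p under 0.05 in limma). Over all tests 18.5% were lower and 2.62% higher at that unadjusted threshold. Cyp4d2 had log2 values of 8.93, 8.91 and 9.11 in gain larvae and 9.53, 9.15 and 9.47 in control larvae, a difference of -0.40 ± 0.14 (SE, adjusted p = 0.176). Cyp4d1 had 10.89, 10.92 and 11.22 in gain, against 11.30, 11.27 and 11.61 in control, a difference of -0.38 ± 0.15 (adjusted p = 0.205). In both genes every gain array lay below every control array, and neither difference passed. The nearest arrays were close, at 9.11 and 9.15 in Cyp4d2 and 11.22 and 11.27 in Cyp4d1. Under quantile normalization and median difference centring Cyp4d1 stayed apart and Cyp4d2 overlapped. Both overlapped under median centring over the tests, and both stayed apart under median centring over all probe sets. Cyp4d8 overlapped, at 9.08 to 9.59 in gain and 9.54 to 9.77 in control, with a difference of -0.32 (adjusted p = 0.3). Cyp4d14 was the most variable member, with 10.21, 9.18 and 9.93 in gain, against 9.06, 9.46 and 10.56 in control. Its SE of 0.44 was above that of 97.7% of all tests, and its 95% interval ran from -0.96 to 1.13, on both sides of 0.

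Cyp4e2 and Cyp4ad1, which are neighbours in the genome, both had every gain array above every control array. Cyp4e2 had log2 values of 12.26, 12.13 and 12.26 in gain larvae, against 12.01, 12.05 and 11.77 in control larvae, a difference of 0.27 ± 0.12 (SE, adjusted p = 0.247). Cyp4ad1 had 10.43, 10.37 and 10.88 in gain, against 10.30, 10.30 and 10.22 in control, a difference of 0.29 ± 0.15 (adjusted p = 0.344). Neither passed, and gain 3 stood highest in Cyp4ad1. Both kept their groups apart under quantile normalization, median difference centring and median centring over the tests, and both overlapped under median centring over all probe sets. Cyp4e1, the third gene of this run, and Cyp4e3, on another chromosome arm, were under the filter on all arrays.

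In the Cyp4ac and Cyp4p genes, 2 sets of tandem neighbours, the value of control 3 moved several differences. Cyp4ac1 had 10.10, 9.99 and 10.10 in gain larvae, against 10.75, 10.96 and 9.90 in control larvae. The gain arrays lay close together, and control 3 alone was lower than all of them. The difference was -0.47 ± 0.27 (SE, adjusted p = 0.37), and without control 3 it was -0.79 (adjusted p = 0.028, over 19 alternatives 0.028 to 0.685). Cyp4p3 had 7.72, 7.33 and 7.58 in gain, against 7.94, 8.19 and 7.30 in control, and Cyp4ac3 had 8.68, 8.43 and 8.40 in gain, against 8.78, 9.01 and 8.41 in control. Control 3 was the lowest control in both, and the groups overlapped. Their differences were -0.27 and -0.23, or -0.52 and -0.39 without control 3, and did not pass either way (adjusted p = 0.142 and 0.201 without it). Cyp4p1 had 12.01, 11.81 and 11.99 in gain and 12.30, 12.21 and 12.18 in control, with groups that did not overlap. Its difference was -0.29 ± 0.11 (adjusted p = 0.186). Control 3 was again the lowest control, but the difference moved little without it, to -0.32.

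Among the 15 tested genes, control 3 lay more than 0.5 from the mean of the other controls in 3: Cyp4ac1 at -0.96, Cyp4p3 at -0.76 and Cyp4d14 at 1.30. Over all tests 14.6% did so. It was the lowest control in 9 of the 15 genes and in 38.8% of all tests. Without control 3, 2 clan 4 genes were lower, Cyp4c3 and Cyp4ac1, and none higher, where 4.69% of all tests were lower and 0.64% higher. Cyp4d14 then had a difference of 0.52 in place of 0.08 (adjusted p = 0.417). Without gain 2 no clan 4 gene passed in limma, where 2.35% of all tests were lower and 0.527% higher. At an unadjusted p under 0.05 that fit gave 2 lower and 1 higher, where 14.2% of all tests were lower and 4.55% higher.

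**Figure D2:**
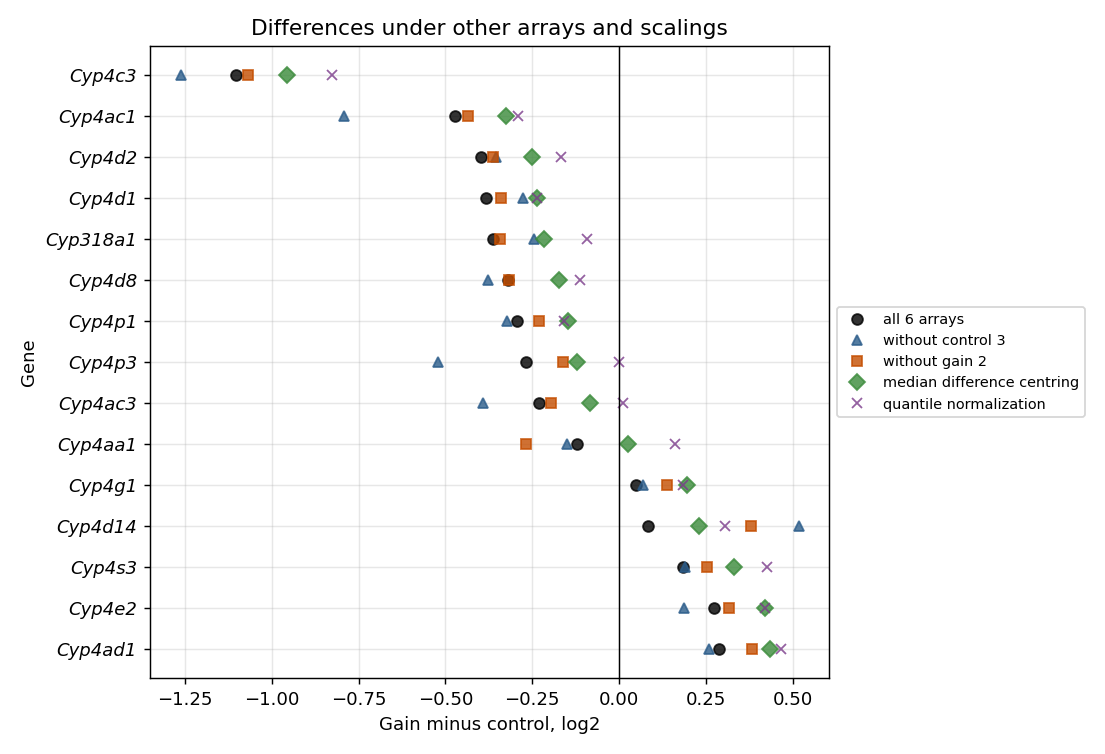
Gain minus control on the log2 scale (x axis) of each tested gene (y axis) with all 6 arrays, without control 3, without gain 2, and under 2 other scalings. Cyp4ac1 and Cyp4p3 lie farther left without control 3, at -0.79 and -0.52, and Cyp4d14 farther right, at 0.52; both scalings shift the genes to the right.

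The last 3 tested genes came from families with 1 measured member each. Cyp318a1 had log2 values of 6.74, 6.84 and 7.06 in gain larvae, against 7.14, 7.11 and 7.48 in control larvae, a difference of -0.36 ± 0.15 (SE, adjusted p = 0.231). The groups did not overlap, but gain 3 and control 2 were only a little apart. Cyp4s3 lay at 8.94 to 9.34 in gain and 8.76 to 9.02 in control, with a difference of 0.18 (adjusted p = 0.511). Cyp4aa1 lay at 5.98 to 6.62 in gain and 6.40 to 6.50 in control, with a difference of -0.12 (adjusted p = 0.728) that was 0.03 under median difference centring and 0.16 under quantile normalization.

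In all, 5 of the 15 genes had every gain array below every control array and 2 had every gain array above. Over all tests the shares were 25.2% and 5.49%, so the first count is near the background, and 2 of 15 are too few to set against it. Median difference centring, which takes out the shift of all tests, gave 3 lower (Cyp4c3, Cyp4d1 and Cyp4p1) and 4 higher (Cyp4ad1, Cyp4e2, Cyp4g1 and Cyp4s3), where the shares over all tests were 16.2% and 16.5%. A negative difference was found in 10 of the 15 genes and in 75.0% of all tests, and a positive one in 5 genes and 25.0% of all tests. The SE of the 15 genes ran from 0.11 to 0.44, with a median of 0.15, as over all tests. For 12 of the 15 genes the 95% interval of the difference lay within a 2-fold change in either direction; the others were Cyp4c3, Cyp4ac1 and Cyp4d14.

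**Figure D3:**
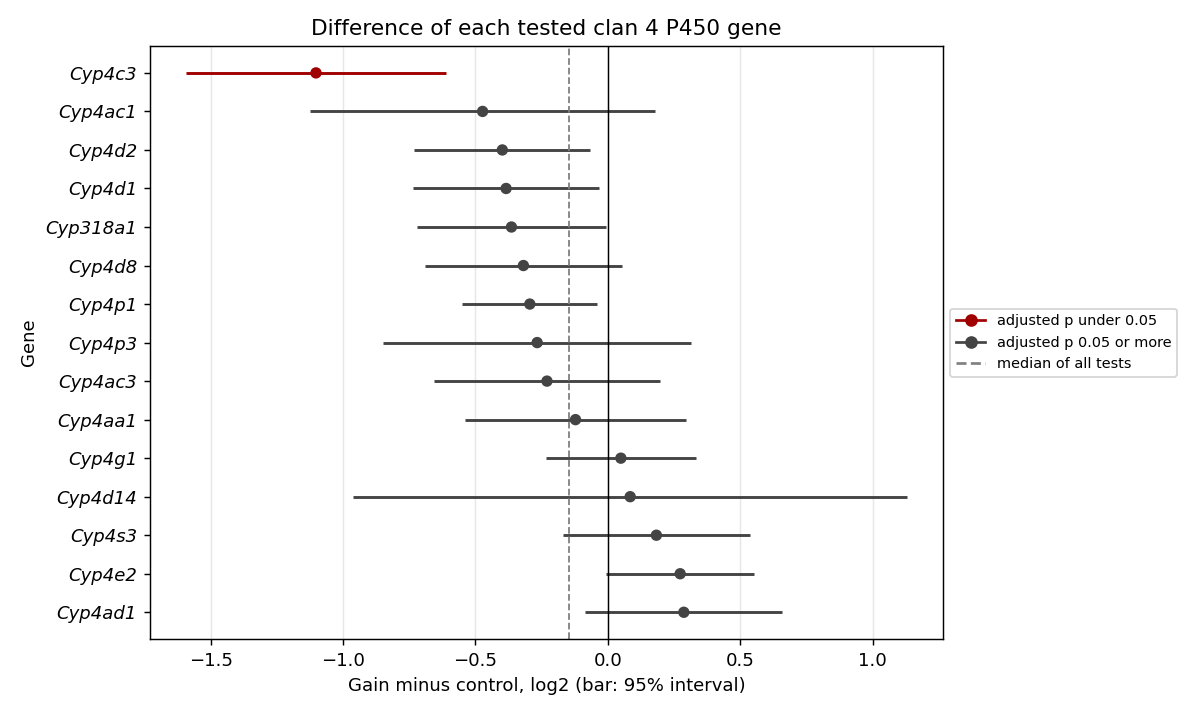
Gain minus control on the log2 scale (x axis) of the 15 tested clan 4 genes (y axis), as points with 95% intervals; the dashed line marks the median of all tests, -0.15. Cyp4c3 is the only gene drawn as passing, and the interval of Cyp4d14 is the widest, from -0.96 to 1.13.

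The other 17 genes were not tested, since fewer than 3 arrays reached the log2 floor of 4. In 14 of them no array reached it: Cyp311a1, Cyp312a1, Cyp313a1, Cyp313a2, Cyp313a3, Cyp313a5, Cyp313b1, Cyp4ac2, Cyp4ae1, Cyp4d20, Cyp4d21, Cyp4e1, Cyp4e3 and Cyp4p2. Their log2 values ran from 1.93 to 3.12, and their group means differed by -0.17 to 0.12. Cyp4d21, also called sxe1, is known for its expression in adult male heads. The 6 genes of the Cyp313 family were all under the filter; Cyp313a4 came closest, at 3.92, 3.99 and 3.96 in gain larvae and 4.26, 4.18 and 3.95 in control larvae. Cyp316a1 had the widest gap of these genes, with 2.31, 2.99 and 2.64 in gain, against 3.74, 3.54 and 4.04 in control. Its groups did not overlap, but only control 3 reached the floor, so no fold is given.

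**Figure D4:**
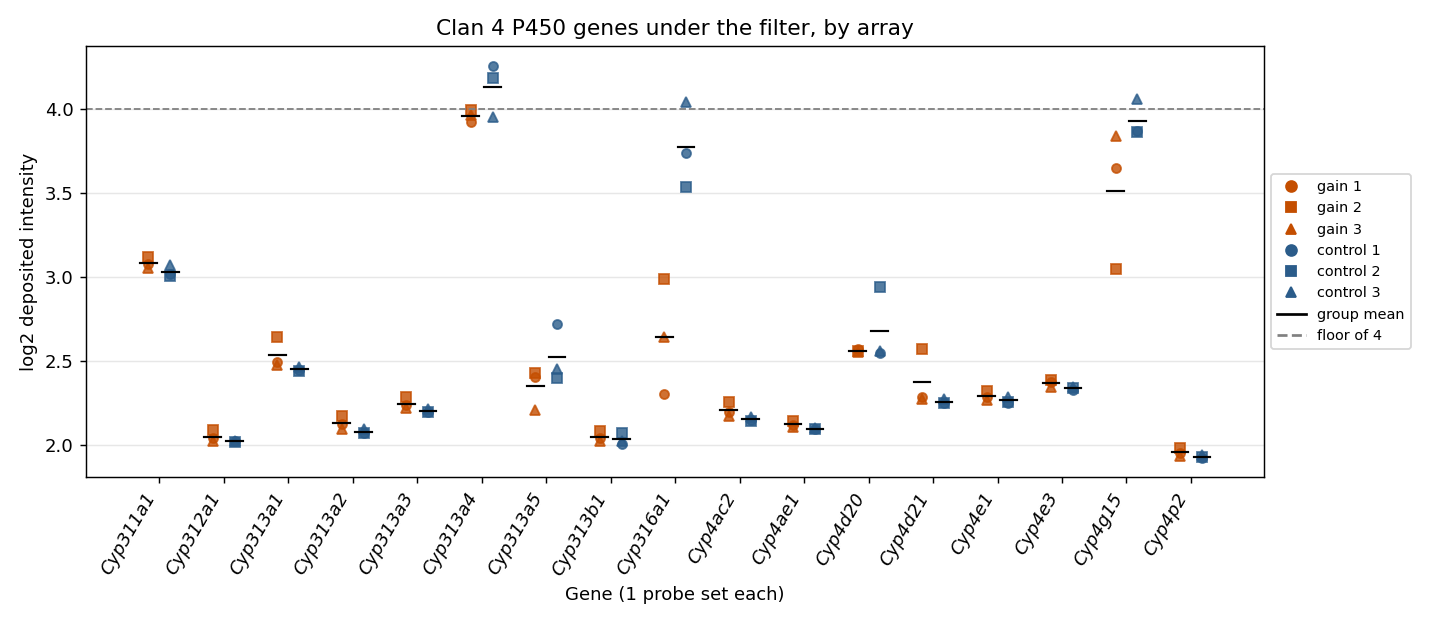
Log2 deposited intensity (y axis) of the 17 clan 4 genes under the filter (x axis), gain arrays left of control arrays, with group means as black lines and the floor of 4 dashed. Only Cyp313a4, Cyp316a1 and Cyp4g15 have arrays near the floor, and Cyp316a1 has gain arrays at 2.31 to 2.99 and control arrays at 3.54 to 4.04.

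Many clan 4 genes lie next to each other. In the order of protein-coding genes of the Release 6 reference assembly, 19 of the 32 lay in 7 runs of adjacent clan 4 genes, none longer than 3. In 6 of the 7 runs a tested gene stood beside one under the filter: Cyp4ac1 and Cyp4ac3 beside Cyp4ac2, Cyp4p1 and Cyp4p3 beside Cyp4p2, Cyp4ad1 and Cyp4e2 beside Cyp4e1, Cyp4d14 and Cyp4d2 beside Cyp4ae1, Cyp318a1 beside Cyp311a1, and Cyp4d8 beside Cyp316a1. The remaining run, Cyp313a5, Cyp313a2 and Cyp313a3, had no tested gene. Neighbouring copies can resemble each other, so a probe set may also read a near copy; no sequence was used to check this.

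Beside clan 4, 32 of 49 other P450 genes were tested, of which 6 fell and none rose, where 3.47% of all tests were lower and 0.451% higher. At an unadjusted p under 0.05 limma gave 14 lower and 1 higher, where 18.5% of all tests were lower and 2.62% higher. Without gain 2 the count of calls was 2 lower and none higher, and without control 3 it was 6 and none. The 6 genes without control 3 were not all the same. Cyp305a1 (adjusted p = 0.0589) and Cyp9b2 (0.067) no longer passed there, and Cyp12d1-d (0.00608) and Cyp6a9 (0.023) did. Under quantile normalization or median difference centring the count of calls was 4 lower and 1 higher, and under median centring over the tests 3 lower and 1 higher. The gene called higher there was Cyp6a2. Of the 6 genes that fell with all arrays, Cyp9h1 reached the floor of 4 only in the control arrays, at 4.13, 4.22 and 4.06. Its gain arrays lay at 3.15, 2.79 and 3.22, so its entry to the tests rested on the group where it was higher. Cyp9h1 was also 1 of the 2 genes lower without gain 2. The median difference of the other P450 genes was -0.32, against -0.27 for clan 4. Whether the groups of genes differ was not tested. After median difference centring the medians were -0.17 for the other P450 genes and -0.12 for clan 4.

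**Figure D5:**
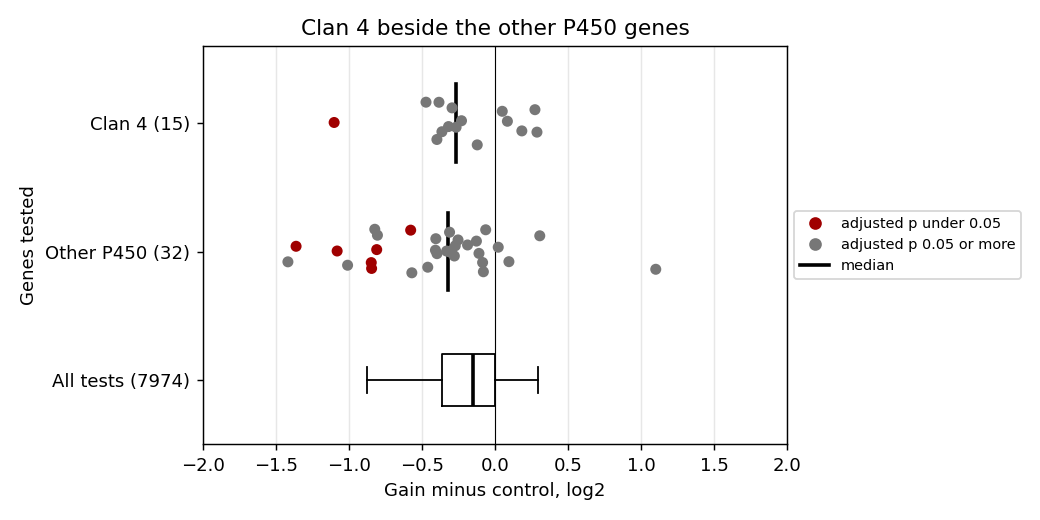
Gain minus control on the log2 scale (x axis) of the tested clan 4 genes and the other tested P450 genes, a point each, above a box of all tests with whiskers at the 5th and 95th percentiles; black bars are medians. The medians are -0.27 for clan 4, -0.32 for the other P450 genes and -0.15 for all tests, and 1 clan 4 gene and 6 other P450 genes are drawn as passing.

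Genes tied to P450 enzymes or to their lipid substrates were read from lists drawn up by function. The electron partners were listed for P450 enzymes in general, so not all of them need serve clan 4. Of 5 electron partners tested none passed in limma (1 lower and none higher at an unadjusted p under 0.05), with a median of -0.02. Over all tests 18.5% were lower and 2.62% higher at that unadjusted threshold. Cyt-b5, an electron donor to P450 enzymes, had a difference of 0.01, and Cyt-b5-r, a cytochrome b5-related gene, one of 0.15. CG3566 had one of -0.05, and Fdx2, a ferredoxin gene, one of -0.02. CG6870, of the cytochrome b5 family, had the largest difference of the list, with 7.33, 6.51 and 6.67 in gain larvae, against 8.83, 9.96 and 7.30 in control larvae. Control 3 overlapped with gain 1, and the difference was -1.86 ± 0.64 (SE, adjusted p = 0.175), or -2.56 without control 3 (adjusted p = 0.0283). The gene of NADPH-cytochrome P450 reductase was not analysed here, as no probe set carries its name alone.

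Of 10 genes of cuticular hydrocarbon and long-chain lipid synthesis tested, none passed in limma (1 lower and none higher at an unadjusted p under 0.05). Their median was -0.30 and 9 were negative. Over all tests 75.0% were negative, and 18.5% were lower and 2.62% higher at an unadjusted p under 0.05. The differences were -0.49 for ACC, which makes malonyl-CoA, -0.40 for FASN1 and -0.35 for FASN2, both fatty acid synthases, and -0.37 for Hacd1, a dehydratase of fatty acid elongation. Of 7 partners of fatty acid oxidation and binding none passed (1 lower and none higher at an unadjusted p under 0.05), with a median of -0.13. Fatp2, of the fatty acid transport protein family, had 5.10, 4.55 and 5.15 in gain larvae, against 6.17, 6.24 and 5.61 in control larvae. The groups were apart, with a difference of -1.07 (adjusted p = 0.0613). Fatp2 passed without control 3, at -1.27 (adjusted p = 0.0318), and as the single gene of its list under median difference centring and median centring over all probe sets. The gene bgm, of an acyl-CoA synthetase, had -0.15, and Aldh-III and Acsl had -0.13 each. As a check of the shared heat treatment, none of 6 heat shock genes passed (none lower and 1 higher at an unadjusted p under 0.05). Hsp68 was at 0.24 ± 0.53 (SE), stv at 0.22 ± 0.09, DnaJ-1 at 0.18 ± 0.57 and Hsp27 at -0.11 ± 0.10. With SEs as wide as those of Hsp68 and DnaJ-1, the lack of calls does not show that heating was equal. Without control 3 Hsp68 was at -0.16 and DnaJ-1 at -0.39, and neither passed.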

How the data were processed

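The authors deposited linear-scale intensities, 1 for each of 18952 probe sets on each of 6 arrays; the submitters' processing notes name GCRMA. The sources used here give neither scanner settings nor a genome build. Genes were named from the platform annotation, with symbols updated by gene ID through a reference table (Release 6 plus ISO1 MT) (13544 of 13647 probe sets with 1 gene matched), which also gave the gene order.

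Log2 was taken with no pseudocount. A probe set entered when at least 3 of 6 arrays had a log2 value of 4 or above (8395 probe sets), and each gene was represented by its brightest, giving 7974 tests. Groups come from the sample titles. Gain was compared with control by limma 3.58.1 in R 4.3.3 (lmFit, eBayes), with Benjamini-Hochberg adjustment over all tests and calls at an adjusted p under 0.05. The procedure was tested on simulated data. The number of arrays limits the precision.

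Every clan 4 gene is named. All tested electron partners are named. Of the other function lists up to 4 genes with the largest differences are named, and of the marker lists the called genes and examples chosen after their values were seen. The other P450 genes named were also chosen after their values were seen. The members, lists and settings were chosen with earlier results of these data known. Replicate numbers were not taken as pairs: deviations from the group means correlated by 0.21, 0.03 and 0.37 between arrays of the same number. Between arrays of different numbers they correlated by -0.355 to 0.343. Summaries used pandas 2.3.3, NumPy 2.4.6 and Python 3.11.15, and drawing Matplotlib 3.10.9.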

Additional observations from a re-analysis of the deposited data

How the results depend on the processing

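With all arrays, 1 clan 4 gene was called lower and none higher. The count of lower calls was 0 with no filter, quantile normalization, median centring over the tests, the replicate number as a block and controls 1 and 2 averaged, 2 with control 3 and gain 2 both left out, and 0 to 2 without single arrays. Cyp4c3 had a difference of -1.10 with an adjusted p of 0.0891 under the replicate block, which is a shared number and not a pairing. The median of clan 4 was 0.0201 with no filter (32 genes), 0.0011 with quantile normalization, -0.36 with median centring over all probe sets, -0.12 with median difference centring, -0.0188 with median centring over the tests, -0.15 with controls 1 and 2 averaged, and -0.29 to -0.10 without single arrays. That of all tests was 0.031, 0.0368, -0.24, -0.0007, 0.10, -0.16 and -0.22 to -0.05 in the same order. Genes with groups apart numbered 3 lower and 4 higher with quantile normalization or median difference centring, 5 and 0 with median centring, and 1 and 4 with median centring over the tests; over all tests the counts were 2008 and 438 as deposited, 1070 and 1627, 1294 and 1315, 2330 and 138, and 864 and 2147.

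Over all tests 277 were lower and 36 higher. These were 85 and 17 with no filter, 282 and 171 with quantile normalization, 349 and 129 with median difference centring, 252 and 201 with median centring over the tests, 40 and 13 with controls 1 and 2 averaged, 631 and 129 with control 3 and gain 2 left out, 217 and 41 with the replicate block, and 27 to 374 and 12 to 51 without single arrays. Of 285 values of tested clan 4 genes 14 turned sign, none of them of a gene that passed. Cyp4aa1 was 0.16 with quantile normalization, 0.0253 with median difference centring, 0.13 with median centring over the tests and from -0.2677 to 0.0547 (without gain 1) without single arrays. Cyp4d14 was -0.0082 with median centring, -0.13 with controls 1 and 2 averaged, and from -0.23 to 0.5174 without single arrays, negative without gain 1, control 1 or control 2. Cyp4g1 was -0.0434 with median centring and from -0.0062 (without gain 1) to 0.138 without single arrays. Cyp4ac3 was 0.0108 with quantile normalization and 0.0182 with median centring over the tests, and Cyp4p3 0.0011 with quantile normalization. Median centring over the tests and the counts of groups apart under each scaling were added after seeing the data, because the median of all probe sets lies below the floor, at 3.04 to 3.27. Differences near background are limited by the floor of 4. Apart from the shifts that centring builds in, the cause of these changes was not tested.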
